A study of Mus musculus with 6 samples.

Results

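Stathmin genes and the genes of the motor kinesin-1 were described over 6 mouse expression arrays. The 10 genes were Stmn1, Stmn2, Stmn3, Stmn4, Klc1, Klc2, Klc3, Klc4, Kif5b and Kif5c, and a probe set was counted as theirs where it carried that single gene symbol. This gave 23 probe sets of 9 genes, out of 45101 probe sets and 18194 genes in the table. Klc2 was not analysed here. The group was chosen by measured values: Stmn4 and Klc3 were among the genes that stood highest with miR-7 in MIN6 cells, and the other genes were added as their relatives. Differences between the miR-7 arrays and their control are therefore given for these genes as a description, with no test.

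Of the 6 arrays, 4 came from MIN6 cells, a mouse insulinoma line that keeps many features of beta cells and secretes insulin. The cells had been infected for 48 h with an adenovirus at a multiplicity of 250, and the culture medium held 4.5 g/l of glucose and 2% of serum. The virus carried green fluorescent protein (AdGFP, 1 array), miR-7a2 (AdmiR7a, 2 arrays) or miR-7b (AdmiR7b, 1 array), so the control cells were infected as well. The other arrays came from pancreatic islets of C57BL/6 mice, 1 from mice in which Cre and lox sites removed miR-7a2 from beta cells (KO) and 1 from wild-type mice (WT). The promoter that drove Cre, the age of the mice and the number of mice per array are not given in the sources used here. Mature miR-7 was not measured, and nothing says that the AdmiR7a duplicates were separate cultures, so their spread may be technical.

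Stathmins are small proteins that bind tubulin dimers and promote the shrinkage of microtubules. Stmn1 is found in many dividing cells, whereas Stmn2, Stmn3 and Stmn4 are best known from neurons, where a membrane anchor holds them at the Golgi apparatus and at vesicles. Kinesin-1 walks along microtubules towards the cell periphery: Kif5 heavy chains carry the motor domain, and light chains (Klc) link it to cargo. In beta cells kinesin-1 carries insulin granules, and its heavy chain Kif5b is needed in mice for normal insulin secretion.

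The mature forms of the microRNAs in the vectors, from RefSeq (GRCm38.p6), are shown because they define the treatment. Capitals mark the seed, bases 2 to 8. The miR-7a form is encoded on chr7:78888295-78888317 (plus strand, the miR-7a2 locus) and again on chr13:58392841-58392863 (minus strand), and the miR-7b form on chr17:56243017-56243040 (plus strand).
mmu-miR-7a-5p: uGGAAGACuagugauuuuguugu
mmu-miR-7b-5p: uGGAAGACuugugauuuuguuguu
Counted from the 5′ end, they differ by the substitution A10U, outside the seed, and miR-7b has 1 more base at its 3′ end.

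All values are log2 intensities of Affymetrix probe sets, and a difference of 1 is a doubling. A level of 4 was used as the border to the background, since the floor of the scale lies at 2.17 and between 44.7% and 46.4% of all probe sets lie above 4 on each array. Of the 23 probe sets, 4 stayed under 4 on every array (1 of Stmn2, 1 of Klc4 and 2 of Kif5c) and 19 reached it. Levels of different probe sets are not compared with each other. Stmn4 and Klc3 had 1 probe set each, so no other probe set can be set beside their values.

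Stmn4, the stathmin also called RB3, was at 2.90 with AdGFP, at 5.97 and 6.03 with AdmiR7a and at 6.66 with AdmiR7b. The control lay below 4 and all 3 miR-7 arrays lay above it. The mean of the miR-7 arrays was 3.32 (log2) above AdGFP, with an SD of 0.39 between them (n = 3). With values under 4 raised to 4 the difference was 2.22, so its size depends on a control value near the background. The gene passed the filter on low values only through the miR-7 arrays. By difference from AdGFP it ranked 5 among 10369 genes with AdmiR7a and 4 with AdmiR7b, which is what chose it.

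Klc3, a light chain known in rodents from the tails of maturing sperm, was at 6.52 with AdGFP, at 8.94 and 8.84 with AdmiR7a and at 9.18 with AdmiR7b. Here the control was well above the background, and the miR-7 arrays did not overlap it. Their mean was 2.47 (log2) higher, a 5.54-fold difference, with an SD of 0.17 (n = 3). Its ranks were 15 and 19.

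The third light chain measured, Klc4, was at 6.51 with AdGFP, 7.31 and 7.32 with AdmiR7a and 7.74 with AdmiR7b, a mean of 0.94 higher. Klc1, a light chain enriched in neurons, was 0.27, 0.55 and 0.55 higher on its 3 probe sets, on the dimmest of which the AdmiR7a duplicates lay at 5.68 and 6.50. On the brightest of them it stood at 10.9 with AdGFP and between 11.19 and 11.22 on the miR-7 arrays. All 3 light chain genes thus lay above AdGFP on every miR-7 array, by amounts that ranged from 0.27 for Klc1 to 2.47 for Klc3.

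The heavy chains differed in direction. Kif5c, the heavy chain enriched in neurons, was at 10.14 with AdGFP and at 10.64, 10.65 and 10.69 on the miR-7 arrays, 0.52 higher on average, and 0.61 higher on its other probe set above the background. Kif5b, the heavy chain of most tissues, was lower on average on all 6 of its probe sets, by amounts from -0.22 to -0.71. Its brightest probe set was at 12.53 with AdGFP, 12.13 and 12.51 with AdmiR7a and 11.98 with AdmiR7b. The AdmiR7a duplicates differed by 0.38 on this probe set, more than the mean difference of -0.32 between miR-7 and AdGFP.

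The other stathmins lay close to the control. Stmn1 was at 14.05 with AdGFP and between 14.10 and 14.17 with miR-7, and Stmn3, known as SCLIP, was at 14.03 against 14.18, 14.20 and 14.32. Stmn2, known as SCG10 from growth cones, was at 7.33 against 7.33, 7.52 and 7.55. Their mean differences were 0.08, 0.20 and 0.14, beside 3.32 for Stmn4. Stmn4 was chosen for its difference, so this contrast with its relatives is a description.

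**Figure D1:**
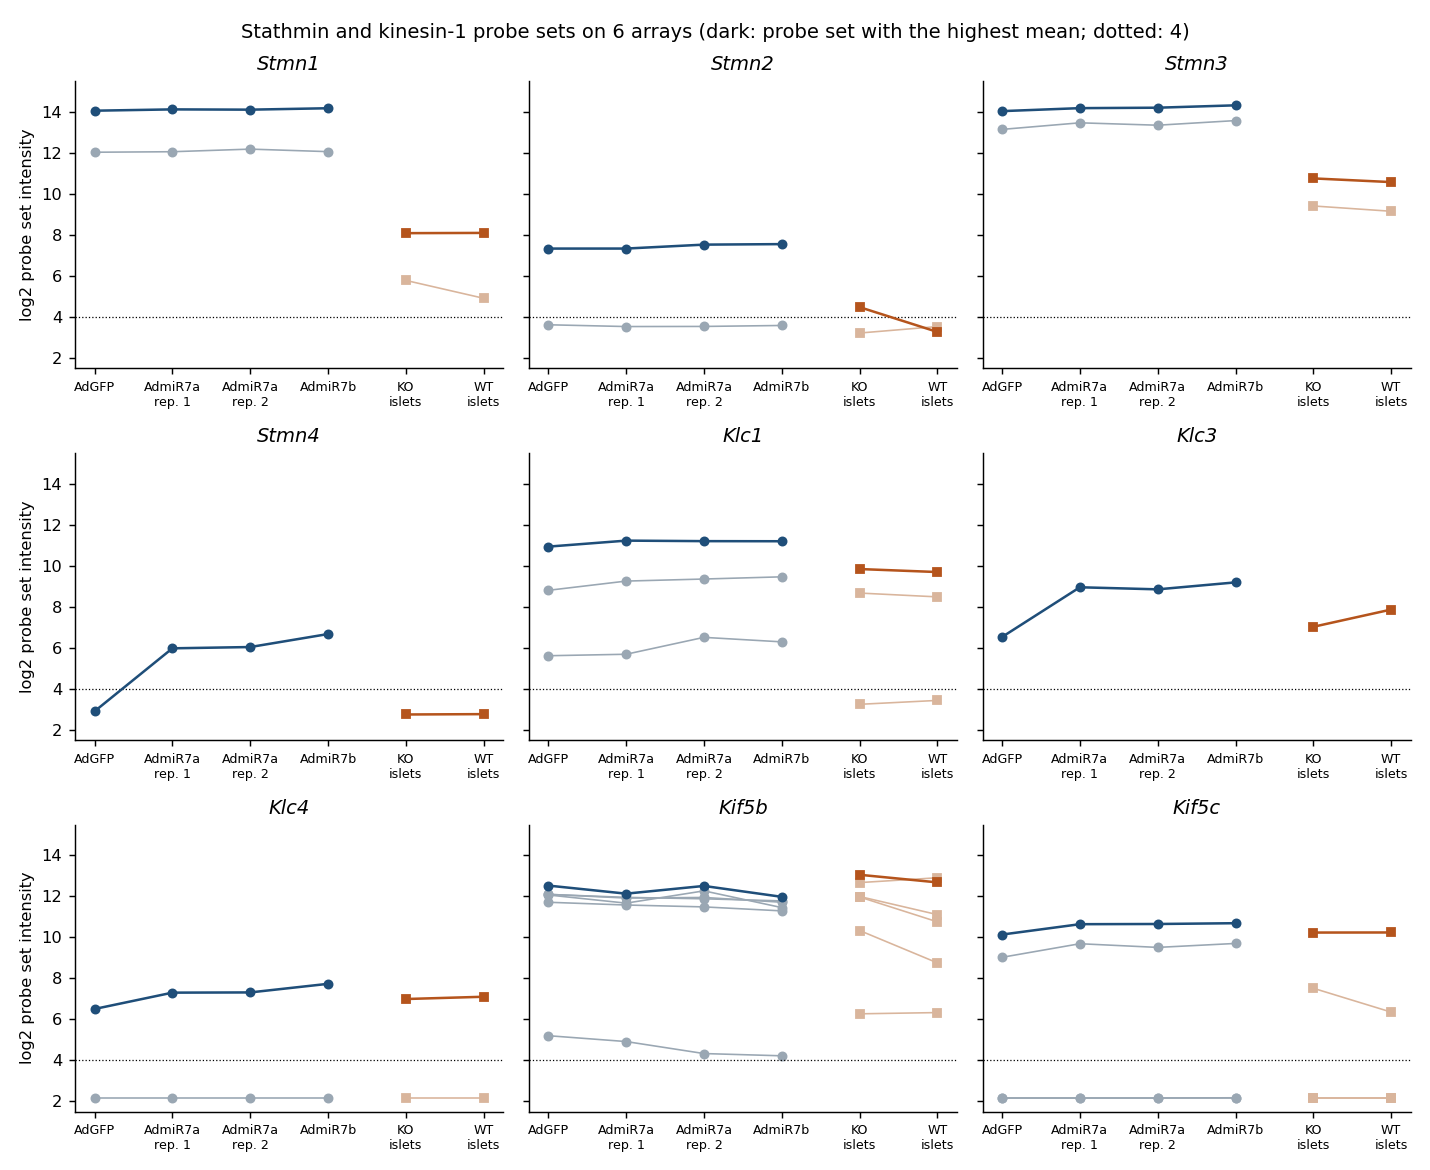
Log2 intensity (y axis) of every probe set of 9 genes on the 4 MIN6 arrays (blue circles) and the 2 islet arrays (orange squares). Lines join the values of 1 probe set, dark symbols show the probe set with the highest mean, and the dotted line is the level of 4. Stmn4 crosses that line between AdGFP (2.90) and the miR-7 arrays (5.97 to 6.66), Klc3 stands higher with miR-7, and Stmn1 and Stmn3 lie far lower in islets.

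In all, 8 of the 9 genes were higher than AdGFP on all 3 miR-7 arrays and 1, Kif5b, was lower on all 3. Among the 10369 genes with a mean of at least 4, 46.5% were higher and 32.9% lower on all 3. Stmn4 and Klc3 were at least 1 higher on each miR-7 array, as were 2.15% of all genes. The median difference was 0.27 for the 9 genes and 0.06 for all genes. The contrast chose these genes, so nothing is read from these counts.

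**Figure D2:**
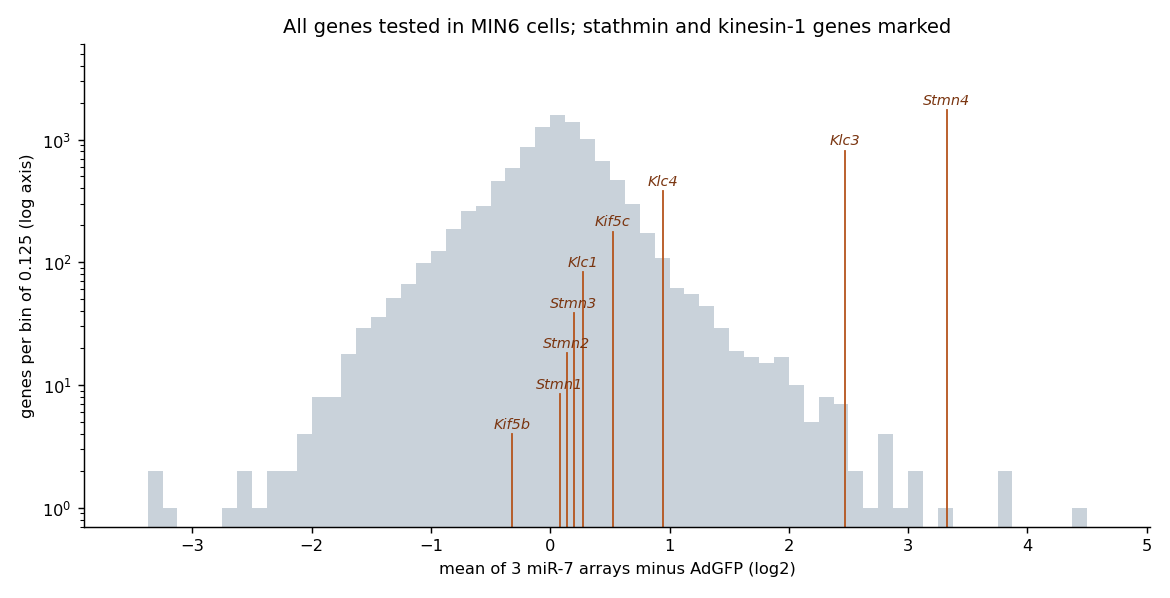
Number of genes (y axis, log scale) by the difference between the mean of the 3 miR-7 arrays and the AdGFP array (x axis, log2) for the 10369 genes tested. Vertical lines mark the 9 stathmin and kinesin-1 genes (line heights only separate the names). Klc3 (2.47) and Stmn4 (3.32) lie in the sparse upper tail, and 6 of the others lie between 0.08 and 0.94.

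Promoters are shown as a description of the genes, and their part in the measured values was not tested. RefSeq windows of 300 bases (250 before to 50 after the start of the gene, GRCm38.p6) were matched for 5 of the genes, Stmn3, Klc1, Klc3, Klc4 and Kif5c. Both strands were searched for the TATA box (TATAAA), the GC box (GGGCGG), the cAMP response element (TGACGTC) and an E-box (CAGATG). The left part (CAGCACC) and the right part (GGACAGC) of the site of the repressor REST were searched as well. In the windows of Klc3 and Klc4, capitals mark every match. These windows are Klc3 (chr7:19404055-19404354, minus strand) and Klc4 (chr17:46646031-46646330, minus strand).
Klc3: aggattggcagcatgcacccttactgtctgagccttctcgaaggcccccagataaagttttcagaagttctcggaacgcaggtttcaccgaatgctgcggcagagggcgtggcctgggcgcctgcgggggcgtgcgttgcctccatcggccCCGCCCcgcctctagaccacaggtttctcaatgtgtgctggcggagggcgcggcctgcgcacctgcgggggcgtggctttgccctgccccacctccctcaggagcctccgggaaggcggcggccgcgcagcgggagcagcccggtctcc
Klc4: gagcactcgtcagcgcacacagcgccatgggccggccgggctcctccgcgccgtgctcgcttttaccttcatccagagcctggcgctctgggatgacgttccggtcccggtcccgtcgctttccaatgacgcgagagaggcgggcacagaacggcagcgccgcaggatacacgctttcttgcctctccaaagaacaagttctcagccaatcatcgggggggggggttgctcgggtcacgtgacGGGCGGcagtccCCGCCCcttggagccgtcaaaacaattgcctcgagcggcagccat

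These windows held 1 GC box in Klc3 and 2 in Klc4, a motif found in 35.7% of 32851 promoters, and none of the other motifs searched. Klc1 and Kif5c each held the cAMP response element, which is present in 3.21% of all promoters. It is shown as a stretch of 61 bases from Klc1 (chr12:111758808-111758868, plus strand) and from Kif5c (chr2:49619233-49619293, plus strand). The motif matches on both strands with an overlap, and here the capitals mark its palindrome alone, not the GC boxes.
Klc1: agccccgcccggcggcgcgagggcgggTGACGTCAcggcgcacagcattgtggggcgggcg
Kif5c: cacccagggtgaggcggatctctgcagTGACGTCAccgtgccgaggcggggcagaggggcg
The first base of the motif lies 33 bases before the annotated start in Klc1 (position -33) and 26 before it in Kif5c (position -26). Klc1 also held 3 GC boxes. Kif5c held 1 GC box, after the annotated start, and 1 match to the TATA box, on the opposite strand at position -220. The TATA box motif is found in 13.6% of promoters. Stmn3 held 1 E-box, found in 17.2% of promoters. Of the parts of the REST site, Kif5c held 1 match to CAGCACC, present in 7.14% of promoters, and no window held GGACAGC, present in 6.56%. The light chain windows were rich in guanine and cytosine, 68.0% in Klc3, 65.0% in Klc4 and 73.7% in Klc1. The share was 58.0% in Kif5c and 49.7% in Stmn3, and the median over all promoters was 52.7%.

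AdmiR7b was compared with AdmiR7a, whose microRNAs share the seed. The comparison was fitted over all genes with limma, with 1 residual degree of freedom from the AdmiR7a duplicates. Stmn4 and Klc3 were left out of the counts, since both were chosen as high with miR-7. Of the other 7 genes, 5 were higher with AdmiR7b than on both AdmiR7a arrays, beside 38.9% of all genes. The limma test called 0 of these 7 genes and 0% of all genes. Before adjustment 608 genes had a p under 0.05, and the smallest adjusted p was 0.737. Klc4 was 0.42 ± 0.07 (SE) higher with AdmiR7b (limma adjusted p = 0.737) and Stmn3 0.13 ± 0.07 higher (limma adjusted p = 0.756). Kif5b was lower with AdmiR7b (-0.34 ± 0.22, limma adjusted p = 0.769). Stmn4 was 0.66 and Klc3 0.29 higher with AdmiR7b, given without a test. The AdmiR7a duplicates differed by 0.06 for Stmn4 (replicate 1 minus 2, -0.06) and by 0.10 for Klc3.

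In KO islets the miR-7a2 gene had been removed from beta cells. Each genotype had 1 array, so islet differences have neither a replicate spread nor a test. In whole islets, fewer cells of a type and less RNA per cell cannot be told apart. By the brightest probe set of each gene, 0 of the 7 genes with a mean of at least 4 differed by 1 (log2) or more, against 2.65% of 10568 genes. Their median difference, KO minus WT, was -0.00, against -0.03 for all genes.

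On the brightest probe set of each gene, Klc3 had the largest difference of the 7 genes, while other probe sets of Kif5b, Kif5c and Stmn1 differed by 0.87 to 1.58, higher in KO. On its only probe set, Klc3 was at 7.02 in KO and 7.86 in WT. It was 0.84 (log2) lower in KO (KO minus WT -0.84), and 1.96% of all genes were as low or lower. In MIN6 cells the same probe set was higher with miR-7, for which the gene was chosen. Its values thus lay in opposite directions with the miR-7 vectors and with the miR-7a2 deletion. On their brightest probe sets so did those of Klc4 (0.94 and -0.11) and Kif5b (-0.32 and 0.37). Those of Klc1 (0.27 and 0.15) and Stmn3 (0.20 and 0.18) did not. Stmn1 and Kif5c differed by -0.01 and -0.00 in islets. A cause was not tested. The other light chains differed little, Klc1 by 0.15 (9.83 in KO, 9.69 in WT) and Klc4 by -0.11 (7.11 in WT).

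Stmn4 was below 4 in both genotypes, at 2.74 in KO and 2.76 in WT, so the islet arrays hold no measure of a change in it. Stmn3 was at 10.8 in KO and 10.6 in WT. Stmn2 was at 4.47 in KO and 3.27 in WT, a difference of 1.21 that starts from a value under 4. It became 0.47 with values under 4 raised to 4. Stmn1 was at 8.08 and 8.09 on its brighter probe set but at 5.78 in KO and 4.91 in WT on the other, so its probe sets disagreed.

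Probe sets of both heavy chain genes disagreed in islets as well. Of the 6 Kif5b probe sets, the brightest gave 13.1 in KO and 12.7 in WT, and a further one gave 12.67 and 12.91. The dimmest gave 6.27 and 6.33. In contrast, the remaining 3 were higher in KO, one at 10.34 against 8.76, one at 11.97 against 10.76 and one at 12.0 against 11.1. The differences, KO minus WT, thus ran from -0.24 to 1.58 within the same gene, although 5 of these probe sets were designed on the same cDNA accession per the platform annotation. Kif5c showed the same split, with 10.2 in both genotypes on its brighter probe set and 7.52 in KO against 6.36 in WT on the other.

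The split went with the difference between WT islets and AdGFP. Its relation to the WT level is not read, since levels of different probe sets are not compared. The probe sets with a KO minus WT difference of 0.88, 1.21, 1.58 and, for Kif5c, 1.16 were those whose WT value lay below AdGFP, by -0.99, -1.34, -2.96 and -2.67. Those with WT values at or above AdGFP (0.10 to 1.13 higher) differed by between -0.24 and 0.37. Both differences use the WT array, with opposite sign, so part of this relation is built in. Control probes for the ends of the actin transcript, a measure of RNA quality, stood 2.65 (KO) and 2.77 (WT) higher at the 3′ than at the 5′ end in islets, against 1.43 to 1.48 on the MIN6 arrays. For Gapdh the values were 0.83 and 0.68, against at most 0.05. Its part in these values was not tested. Among the 19 probe sets of the group that reached 4, 4 differed by at least 1 between genotypes (2 of Kif5b, 1 of Kif5c and 1 of Stmn2), beside 5.8% of 22946 probe sets.

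**Figure D3:**
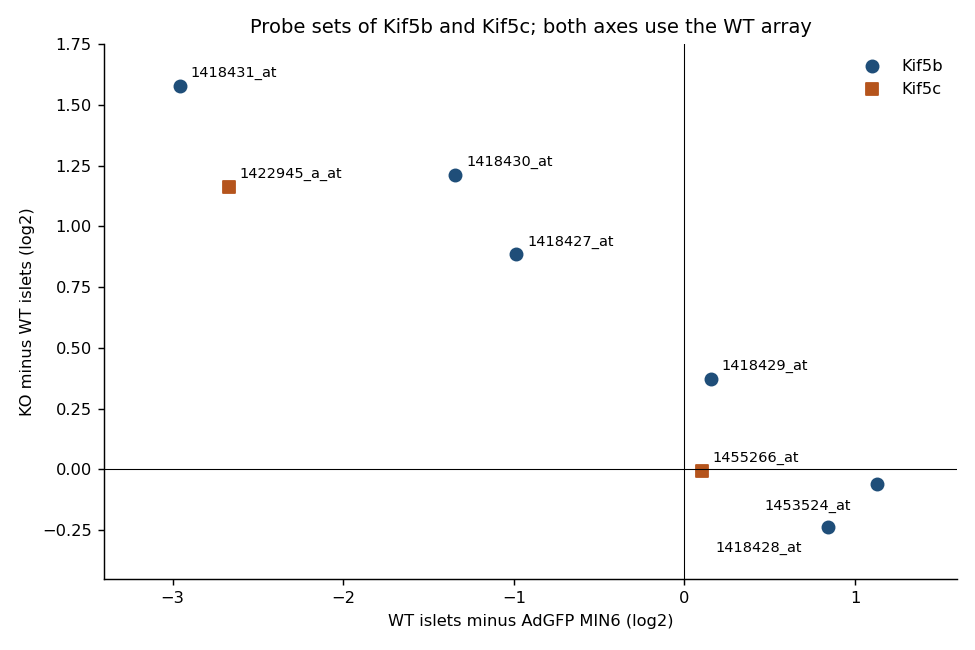
Difference between KO and WT islets (y axis, log2) against the difference between WT islets and AdGFP MIN6 cells (x axis, log2) for the probe sets of Kif5b (circles) and Kif5c (squares) above the background. Each point is 1 probe set and both axes use the WT array. The 4 probe sets at the left, lower in WT islets than in MIN6 cells, are 0.88 to 1.58 higher in KO, and the 4 at the right lie between -0.24 and 0.37.

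AdGFP and WT islets, the control arrays of the systems, differed widely in the stathmins. Stmn1 was 5.96 and 7.12 (log2) lower in WT islets on its probe sets (WT minus AdGFP -5.96 and -7.12), which is 62.2-fold and 139-fold higher in MIN6 cells. Stmn3 was lower in WT islets by -3.46 and -3.99 on its probe sets and Stmn2 by -4.06, the latter against an islet value of 3.27 near the background. The ranges did not overlap on these probe sets. Stmn1, for example, lay between 14.05 and 14.17 on the 4 MIN6 arrays and at 8.08 and 8.09 on the islet arrays.

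Stmn1 differed in company with proliferation genes. All 7 of these with a probe set were above 4 on every MIN6 array, with a mean level of 12.6 to 12.7, and 2 (Mcm2 and Pcna) were above it on both islet arrays, with a mean level of 4.52 in KO and 4.32 in WT. Mki67, the marker of cycling cells, was at 13.4 with AdGFP and 2.44 in WT islets. The part of proliferation in the Stmn1 values was not tested.

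**Figure D4:**
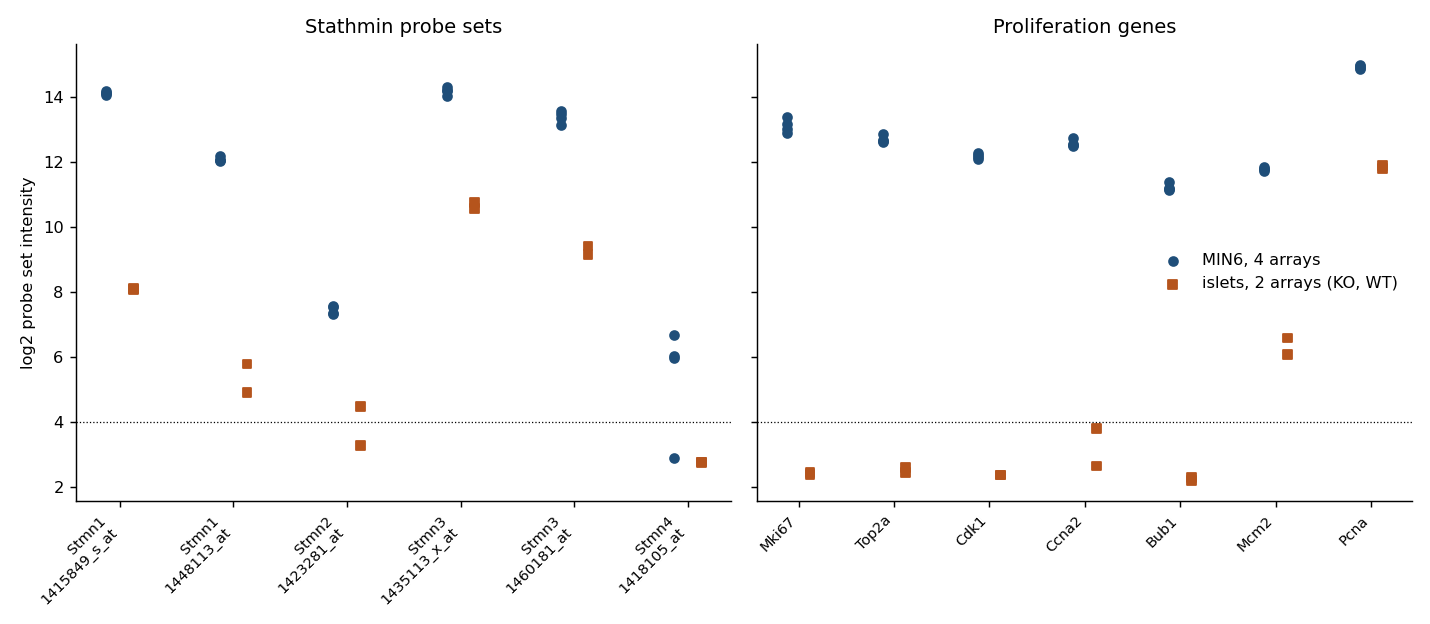
Log2 intensity (y axis) of the stathmin probe sets that reached 4 (left) and of the proliferation genes (right) on the 4 MIN6 arrays (blue circles) and the 2 islet arrays (orange squares). The dotted line is the level of 4. Stmn1 and Stmn3 lie far lower on the islet arrays, as do the proliferation genes, and the lone MIN6 point of Stmn4 under the line is AdGFP (2.90).

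The motor genes went both ways. Klc3 was 1.34 and Klc4 0.60 (log2) higher in WT islets than with AdGFP, while Klc1 was lower on all 3 probe sets (WT minus AdGFP -0.32 to -2.18). Kif5b and Kif5c differed by 0.16 and 0.10 on their brightest probe sets, and with probe sets averaged they were lower in WT islets (-0.53 and -0.64). Of 8 genes tested, 4 (Stmn1, Stmn2, Stmn3 and Klc1) were at least 1 lower in WT islets and 1 (Klc3) at least 1 higher, beside 18.8% and 20.3% of 10787 genes. Klc3 was at 6.52 with AdGFP, 7.02 in KO islets, 7.86 in WT islets and 8.84 to 9.18 on the miR-7 arrays. It was chosen as high with miR-7, so that choice set the order of the MIN6 values. Nothing is read from the order over the groups. The systems differ in cell type, growth and RNA quality, which cannot be told apart here.

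The labelled cell types were checked by marker genes. Ins2 and Iapp lay between 15.7 and 16.2 on all 6 arrays, but the glucose transporter gene Slc2a2 was at 3.84 with AdGFP and 2.52 with miR-7, against 14.1 in WT islets. Beta-cell transcription factor genes were lower with miR-7, Pdx1 at 13.2 with AdGFP and 12.1 to 12.3 with miR-7 and Nkx6-1 at 11.005 and 10.2 to 10.3, as was the peptide gene Ucn3 at 11.6 and 10.4 to 10.5. Their part in the values of the stathmin and kinesin-1 genes was not tested. Of the alpha cell markers, Gcg was at 13.4 with AdGFP and 16.4 in WT islets, Ttr at 16.1 and 15.3 and Irx2 at 3.38 and 5.24. The delta and PP cell markers were lower with AdGFP than in WT islets, Sst at 9.64 and 14.7, Hhex at 2.17 and 9.01 and Ppy at 5.59 and 15.6. Of the non-endocrine markers, all 4 endothelial, 3 of 4 immune, 2 of 4 stellate, 1 of 3 acinar and 0 of 2 ductal genes were above 4 on both islet arrays, and 0 of these on the MIN6 arrays. Their mean levels in KO and WT were 6.89 and 7.24 (endothelial), 6.00 and 5.70 (immune), 5.34 and 5.51 (stellate), 4.14 and 4.13 (acinar) and 3.34 and 2.46 (ductal). The ductal gene Krt19 was at 4.45 in KO and 2.68 in WT, and the acinar gene Cela1 at 8.04 and 8.02. Of 7 neuron and Schwann cell markers, 3 were above 4 on both islet arrays (Mbp, Elavl4 and Rbfox3) and 2 on all MIN6 arrays (Mbp and Elavl4). Elavl4 was at 10.8 with AdGFP and 9.11 in WT islets, and Mbp at 8.64 and 9.73. The 7 markers had a mean of 5.29 in KO and 5.13 in WT, and the Schwann cell gene Sox10 stayed at 3.02.

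Other genes of the same machinery were tested in MIN6 with the 3 miR-7 arrays pooled against AdGFP, by a limma fit that leaves 2 degrees of freedom for the error. Genes are said to have risen or fallen where the adjusted p over all 10369 genes was under 0.05, which 14.3% of them reached upward and 11.9% downward. Beside these shares of all genes, no count in a list below is read as a result about that list. Every difference called in this way rests on 1 AdGFP array, and the fit assumes that this array varies like the miR-7 arrays. Over the 7 lists, 31 genes passed, and 0 passed when any 1 of the miR-7 arrays was left out (lowest adjusted p 0.0650 to 0.0772), with the same sign in each of these fits. With no filter on low values, 10 genes of the lists passed.

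Of 23 other kinesin motor genes, 2 rose and 6 fell, with a median of -0.03. Kif1c, a motor of vesicle transport, was at 6.32 with AdGFP and 7.14, 7.34 and 7.61 with miR-7 and rose by 1.04 ± 0.21 (SE; limma adjusted p = 0.0358). Kif13b fell by 0.98 ± 0.12 (limma adjusted p = 0.0179), the endosome motor Kif16b fell by 0.83 ± 0.15 and the mitotic depolymerase Kif2c fell by 0.73 ± 0.12. The miR-7 arrays did not overlap AdGFP for these 4 genes. With probe sets averaged, Kif1c and Kif13b were not tested, and 1 motor gene of this list rose and 3 fell. Kif5a, the remaining kinesin-1 heavy chain, was at 5.59 with AdGFP and 5.71 to 5.99 with miR-7 (0.24 ± 0.14, limma adjusted p = 0.256).

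Among 18 genes for adaptors and cargo receptors of kinesin-1, 2 rose and 1 fell (median 0.08). Fez2, a relative of the kinesin adaptor Fez1, was at 5.84 with AdGFP and 7.11 to 7.38 with miR-7 and rose by 1.39 ± 0.13 (limma adjusted p = 0.0132). Mapk8ip2, a scaffold that binds light chains, rose by 0.62 ± 0.12, a difference of 0.07 when its probe sets were averaged. Trak2, which links kinesin-1 to mitochondria, fell by 0.58 ± 0.07.

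Of 18 dynein and dynactin genes, which serve transport in the opposite direction, 1 rose and 2 fell (median 0.02). Dync1i1, the dynein intermediate chain of neurons, was at 8.89 with AdGFP and 7.56 to 7.82 with miR-7 and fell by 1.18 ± 0.13 (limma adjusted p = 0.0154). Nde1 fell by 0.66 ± 0.08 and Dynll2 rose by 0.39 ± 0.08. In islets Dync1i1 was at 3.73 in KO, under the level of 4, and at 5.08 in WT, so the size of that difference was not measured.

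Of 11 genes for tubulins, the substrate of stathmins, 2 rose and 1 fell, with a median of 0.00. As for the other lists, these counts stand beside 14.3% and 11.9% of all genes and are no result about tubulins. Tubd1, a centriole tubulin gene, rose by 0.94 ± 0.16 and Tubg1, which nucleates microtubules, rose by 0.51 ± 0.12. Tubb6 fell by 0.36 ± 0.07, a difference of -0.18 (limma adjusted p = 0.114) when its probe sets were averaged. None of the 11 differed by 1 or more between KO and WT islets.

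Of 30 microtubule regulator genes, 4 rose and 5 fell (median -0.01). Mapt, which encodes the microtubule stabiliser tau, was at 10.5 with AdGFP and 8.95, 8.92 and 8.74 with miR-7 and fell by 1.59 ± 0.12 (limma adjusted p = 0.0119). Doublecortin (Dcx) fell by 0.99 ± 0.17 and Svbp, the partner of the enzymes that remove the end tyrosine of tubulin, fell by 1.22 ± 0.27. Dclk1, a kinase of the doublecortin family, rose by 1.02 ± 0.12, a difference of 0.18 when its probe sets were averaged. Its probe sets disagreed, since another was at 7.63 with AdGFP and lower, at 7.22, on the miR-7 arrays. In islets, Map1b, a microtubule-associated protein of neurons, was at 10.6 in KO and 8.79 in WT (1.79 higher in KO), the 1 gene of the list past a size of 1.

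Of 14 kinase genes known to act on stathmins or kinesin-1, 3 rose and 0 fell (median -0.03): Camk2g by 0.86 ± 0.08, Prkacb by 0.36 ± 0.07 and Mapk14 by 0.34 ± 0.07. With probe sets averaged, 1 rose and 1 fell, with Prkacb at 0.22 (limma adjusted p = 0.107) and Mapk14 at 0.11 (limma adjusted p = 0.37). Mapk14 also missed the threshold with each array centred on its median (limma adjusted p = 0.0545) and with quantile normalization repeated (limma adjusted p = 0.0528). Of 18 genes for REST and neuronal genes it is known to repress, 1 rose and 1 fell (median -0.05). The gene counted as risen was Gad1, which makes the transmitter GABA. It was at 2.92 with AdGFP, under the level of 4, and at 5.44, 4.91 and 5.15 with miR-7, so it passed the filter only through the miR-7 arrays and the size of its difference (2.25 ± 0.23 in the fit) was not measured. It was not called with no filter (limma adjusted p = 0.0884), and with a filter at 6 or averaged probe sets it was not tested. The granule peptide gene Vgf fell by 0.80 ± 0.08 and was 1.05 higher in KO. L1cam, a cell adhesion gene, stood at 0.93 ± 0.28 (limma adjusted p = 0.0829) and was 1.03 higher in KO, and Rest itself was at 5.97 with AdGFP and 5.31 to 5.56 with miR-7 (-0.51 ± 0.13, limma adjusted p = 0.0546).

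**Figure D5:**
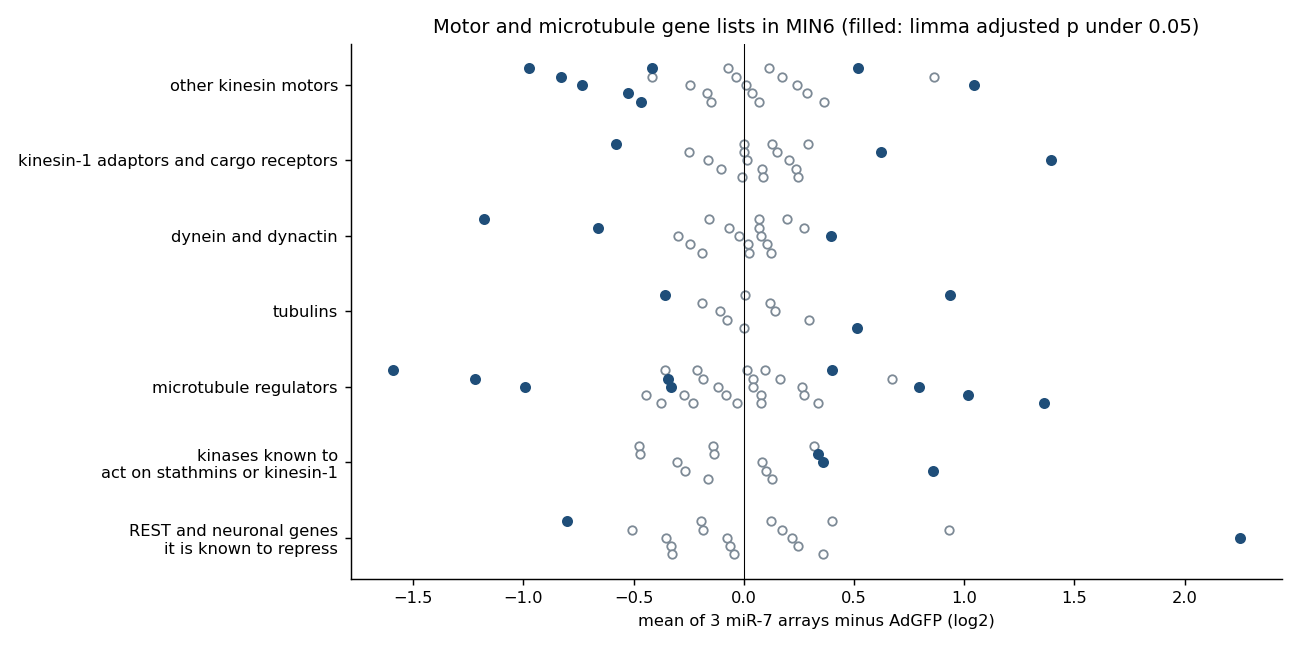
Difference between the mean of the 3 miR-7 arrays and AdGFP (x axis, log2) for the genes of 7 lists (y axis, points spread vertically for legibility). Each point is a gene, filled where the limma adjusted p was under 0.05 (31 genes). Points lie on both sides of 0 in every list, from Mapt (-1.59) to Gad1 (2.25).

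The genes nearest in pattern to Stmn4 and Klc3 were sought among 10217 genes that reached 6 on at least 1 array. Distance was the root mean square difference of log2 values over the 6 arrays, after each gene was centred on its own mean. Nearest to Stmn4 were the water channel gene Aqp8 (0.37), 1700007K13Rik (0.39) and Tppp3 (0.42), a relative of a protein that promotes tubulin polymerisation. Tppp3 was at 6.53 with AdGFP, 8.41, 8.76 and 9.13 with miR-7, 5.89 in KO and 5.43 in WT. Nearest to Klc3 were Klhdc8b (0.37), the vesicle coat gene Sec23a (0.38) and the transcription factor gene Bhlhe40 (0.39). Bhlhe40 was at 8.59 with AdGFP, 9.99 to 10.3 with miR-7, 8.64 in KO and 9.23 in WT. Stmn4 and Klc3 differed from each other by 0.90, and 65 genes were closer to Stmn4 than Klc3 was. Stmn4 lay under 4 with AdGFP and on both islet arrays, as did Aqp8, which reached 6 only with AdmiR7b (6.14). These distances are descriptive, since all genes share the same 6 arrays and Stmn4 and Klc3 were chosen as high with miR-7.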

How the data were processed

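The deposited table holds log2 probe set intensities of 6 Affymetrix mouse arrays. The authors made these log2 values with GCRMA (a sequence-based background model followed by quantile normalization) and the affy package, per the submitters' processing notes, without versions. It is not given in the sources used here if further arrays entered that normalization. Probe sets were named from the platform annotation, with symbols updated through the RefSeq table (GRCm38.p6), and 34958 had 1 symbol.

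A gene was represented by the probe set brightest on average in its system (MIN6 or islets, or all 6 for the comparison between them), and genes with a mean under 4 were left out. Tests were two-sided limma 3.58.1 fits (R 4.3.3) over all genes with Benjamini-Hochberg adjustment. The fits were also run on simulated data in which every array, AdGFP included, had the spread of the AdmiR7a duplicates. That run cannot show how a deviation of the lone AdGFP array would affect the calls. Comparisons of single arrays had no test and were counted at a log2 size of 1. The number of arrays limits the precision.

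The genes and lists were chosen with earlier results of these data known. In each list the text names up to 4 genes that passed, with the largest differences and a level of at least 6 (the 2 largest where fewer than 2 passed), and up to 3 past a size of 1 in islets, besides Rest and Kif5a. Alternatives were other filters, scalings, probe set averages, a floor and leaving out each miR-7 array.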

Additional observations from a re-analysis of the deposited data

How the results depend on the processing

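Over 7 alternatives, 171 differences of the stathmin and kinesin-1 genes were recomputed: 153 moved by less than 0.194 (log2), the SD of the difference between the AdmiR7a duplicates over all genes, 18 moved by more, and 0 of those past a size of 1 changed sign. Averaged probe sets moved Klc4 with miR-7 from 0.94 to 0.47, Kif5b between KO and WT from 0.37 to 0.63, and Kif5b and Kif5c between WT islets and AdGFP from 0.16 and 0.10 to -0.53 and -0.64. Stmn4 with miR-7 became 3.10 without AdmiR7b. The pooled fit called 2715 genes, 981 with no filter and 0 to 0 when 1 of the 3 miR-7 arrays was left out. The 7 lists gave 31 genes, 10 with no filter and 0 to 0 without 1 array. Fewer degrees of freedom remain in the latter fits. KO minus WT islets gave 280 genes past a size of 1, 134 with a filter at 6, 423 with no filter, 183 with averaged probe sets and 933 at a size of 0.58. Between the vectors limma called 0 genes under every alternative run, with 536 to 1891 at an unadjusted p under 0.05. Of 104 recomputed tests of named list genes under other filters, scalings and averaging, 25 no longer passed and 0 changed direction, and of 66 with an array left out, 63 no longer passed. With an array left out, the remaining 3 tests were of L1cam, which did not pass in the main fit either. Tests of L1cam are also among the 104. The median of all genes with miR-7 was 0.06, and 0.03 with each array centred on its median. No paired analysis was possible because only AdmiR7a has more than 1 replicate. Signal near the background limits Stmn4 and Stmn2.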
